A study of Mus musculus with 4 samples.

Results

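Killer lectin-like receptors are C-type lectin-like membrane proteins best known from natural killer cells. The 7 genes Klrg1, Klrd1, Klre1, Klra3, Klrb1c, Klrk1 and Klrc1 were followed here in CD4 T cells, out of 32285 genes in the expression matrices. They were chosen by name and read in each cell against the V gene of its T cell receptor β chain, the size of its clonotype and its Foxp3 status. The cells came from spleens of B6.H2g7 donors (strain B6.NOD-(D17Mit21-D17Mit10)/LtJ, aged 6 to 8 weeks), a strain with the major histocompatibility region H2g7 taken from NOD. Each NOD.Rag1null host, which has no T or B cells of its own, received 5000000 CD4 T cells purified on magnetic columns. On day 14, live CD4+ TCRβ+ cells were sorted from the spleens of 2 hosts (mouse 1 and mouse 2), and each host gave 1 expression library and 1 receptor library. There was no untransferred or untreated group, so every comparison is between classes of cells taken from the same 2 hosts, and all classes share the donor strain, the host strain and the day.

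The kept cells were 5993 in mouse 1 and 6332 in mouse 2, with medians of 5596 and 6219.5 UMIs, the unique molecules counted per cell. Vβ3 cells, which use TRBV26, numbered 2084 and 1960. Vβ20 cells, which use TRBV23, numbered 959 and 725, and the remaining 2950 and 3647 cells are called other cells. A clonotype is the set of cells of 1 mouse with the same TRBV gene, TRBJ gene and β chain CDR3 nucleotides. Cells alone in their clonotype numbered 2395 and 2585, and 1092 and 1511 cells belonged to the 19 clonotypes per mouse that held 20 or more cells. Foxp3+ cells, with at least 1 UMI of this regulatory T cell factor, numbered 919 and 1146. The sort label held in the data: Cd3e was seen in 98.5% and 98.8% of kept cells and Cd4 in 84.1% and 86.9%. Between the libraries, 58 kept cell barcodes were shared, none of them with the same clonotype. Where classes are compared, p-values measure only the spread between these 2 hosts, since the labels do not say whether donors were pooled.

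Klrd1 (CD94) pairs with the NKG2 chains. With NKG2A, encoded by Klrc1, it forms an inhibitory receptor for the nonclassical class I molecule Qa-1, and Klre1 encodes a related chain that pairs with KLRI partners. Klrk1 encodes NKG2D, an activating receptor for stress-induced ligands that signals through the adaptor DAP10 (Hcst). Klra3 encodes Ly49C, an inhibitory receptor for classical class I molecules, and Klrb1c encodes NK1.1, the marker by which natural killer cells of C57BL/6 mice are stained. Klrg1 is an inhibitory receptor for cadherins that marks differentiated effector T cells and a subset of effector regulatory T cells.

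All 7 genes lie on chromosome 6 (GRCm38). Klrg1 stands apart at chr6:122270596-122282882, and Klrb1c lies at chr6:128778485-128789215, both on the minus strand. Klre1 (chr6:129577905-129585827, plus strand) is followed after 5.955 kb by Klrd1 (chr6:129591782-129598775, plus strand). Klrk1 (chr6:129610323-129623864) and Klrc1 (chr6:129666015-129678973) come next on the minus strand, so that Klre1, Klrd1, Klrk1 and Klrc1 fit within 101.068 kb. Klra3 (chr6:130323289-130337574, minus strand) lies in the Ly49 cluster further on. Klra3 has near-identical Ly49 relatives and Klrc1 has the relatives Klrc2 and Klrc3, so counts of these 2 genes are uncertain where reads could be split between copies.

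RefSeq promoter windows (GRCm38.p6, 250 bases before to 50 after the start) matched 5 of the 7 symbols. Those of Klre1 and Klrk1, neighbours in the genome that moved together below, and of Klrb1c, which moved the other way, are shown 5′ to 3′ with the RUNX core hexamer in capitals (TGTGGT, or ACCACA on the other strand). The windows are chr6:129577963-129578262 (plus strand), chr6:129623815-129624114 (minus strand) and chr6:128788592-128788891 (minus strand). RefSeq gives a second Klre1 window, chr6:129578036-129578335, which is not shown and does not hold the hexamer.
Klre1: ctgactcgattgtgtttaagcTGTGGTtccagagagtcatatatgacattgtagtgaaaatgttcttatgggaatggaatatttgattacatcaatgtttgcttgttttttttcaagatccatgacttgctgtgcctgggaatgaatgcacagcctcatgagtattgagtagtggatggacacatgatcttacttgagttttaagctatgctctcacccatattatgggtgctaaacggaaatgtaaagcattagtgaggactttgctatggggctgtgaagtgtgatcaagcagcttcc
Klrk1: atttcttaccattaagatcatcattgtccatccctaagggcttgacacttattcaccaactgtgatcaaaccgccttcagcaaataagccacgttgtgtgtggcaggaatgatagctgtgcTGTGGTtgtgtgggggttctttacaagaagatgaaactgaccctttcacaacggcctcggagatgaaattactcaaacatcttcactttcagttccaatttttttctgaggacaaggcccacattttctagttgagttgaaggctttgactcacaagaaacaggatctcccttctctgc
Klrb1c: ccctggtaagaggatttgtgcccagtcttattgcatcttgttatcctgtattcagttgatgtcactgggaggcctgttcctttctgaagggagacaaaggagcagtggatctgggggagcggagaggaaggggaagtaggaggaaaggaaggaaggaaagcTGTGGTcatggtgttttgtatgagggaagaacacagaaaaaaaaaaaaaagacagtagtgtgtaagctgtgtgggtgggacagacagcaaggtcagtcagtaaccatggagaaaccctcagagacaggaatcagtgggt
The hexamer stands at position 22 of the Klre1 window, 122 of the Klrk1 window and 162 of the Klrb1c window, counted from the 5′ end. It is also in the Klrc1 window and not in that of Klra3, and 16.8% of 32817 promoter windows of this length hold it. The T-box motif AGGTGTGA (TCACACCT on the other strand), held by 1.27% of windows, is in none of the members' windows. These matches describe letters only.

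At least 1 UMI of any of the 7 genes was found in 1147 cells (19.1%) of mouse 1 and 1523 cells (24.1%) of mouse 2. Klrg1 was seen in 538 and 572 cells, and Klrd1 in 371 and 571. Klrc1 was seen in 258 and 292 cells, Klrk1 in 152 and 237, Klre1 in 123 and 121, Klra3 in 73 and 246, and Klrb1c in 96 and 146. Levels below are CPM, the gene's UMIs per 1000000 UMIs of the summed class. Over all kept cells Klrg1 was at 43.5 and 58.8 CPM, Klrd1 at 27.3 and 43.4, and Klrc1 at 15.2 and 17.2. Klra3 was at 3.90 CPM in mouse 1 and 13.1 in mouse 2. The other 3 members lay between 3.23 and 13.1 CPM in both hosts.

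Vβ3 and Vβ20 cells held less of Klrd1, Klre1, Klra3, Klrk1 and Klrc1 than other cells and more Klrb1c. Klrd1 was at 8.37 and 20.1 CPM in Vβ3 cells of mouse 1 and mouse 2, at 12.5 and 5.79 in Vβ20 cells and at 44.0 and 62.3 in other cells. Its partner Klrc1 was at 5.45 and 12.2 CPM in Vβ3 cells, 6.25 and 5.17 in Vβ20 cells and 24.2 and 22.0 in other cells. In both genes the lowest value of other cells lay above the highest value of either class. Klrk1 followed the same order, with 1.74 and 7.66 CPM in Vβ3 cells, 3.04 and 1.86 in Vβ20 cells and 14.7 and 18.0 in other cells. Klre1 was at 0.948 and 2.87 CPM in Vβ3 cells, 1.76 and 0.621 in Vβ20 cells and 16.1 and 12 in other cells. Klra3 was at 1.26 and 1.03 CPM in Vβ3 cells, 1.60 and 0.207 in Vβ20 cells and 6.31 and 21.7 in other cells. None of these 3 genes overlapped between other cells and the Vβ3 or Vβ20 cells either. With only 2 mice, values that do not overlap are a description, here and below, and no share over all genes is given for them. The tests set the members beside all genes.

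Klrb1c ran the opposite way. It was at 6.00 and 8.48 CPM in Vβ3 cells and 4.64 and 8.28 in Vβ20 cells, against 1.01 and 1.40 in other cells, again without overlap. Of 12 V genes with at least 100 cells in both mice, TRBV26 and TRBV23 had the highest Klrb1c levels in each mouse. The remaining 10 V genes reached at most 1.87 CPM in mouse 1 and 3.68 in mouse 2. Klrg1 overlapped between the classes, with 41.7 and 74.3 CPM in Vβ3 cells, 37.6 and 57.7 in Vβ20 cells and 46.5 and 51.0 in other cells.

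**Figure D1:**
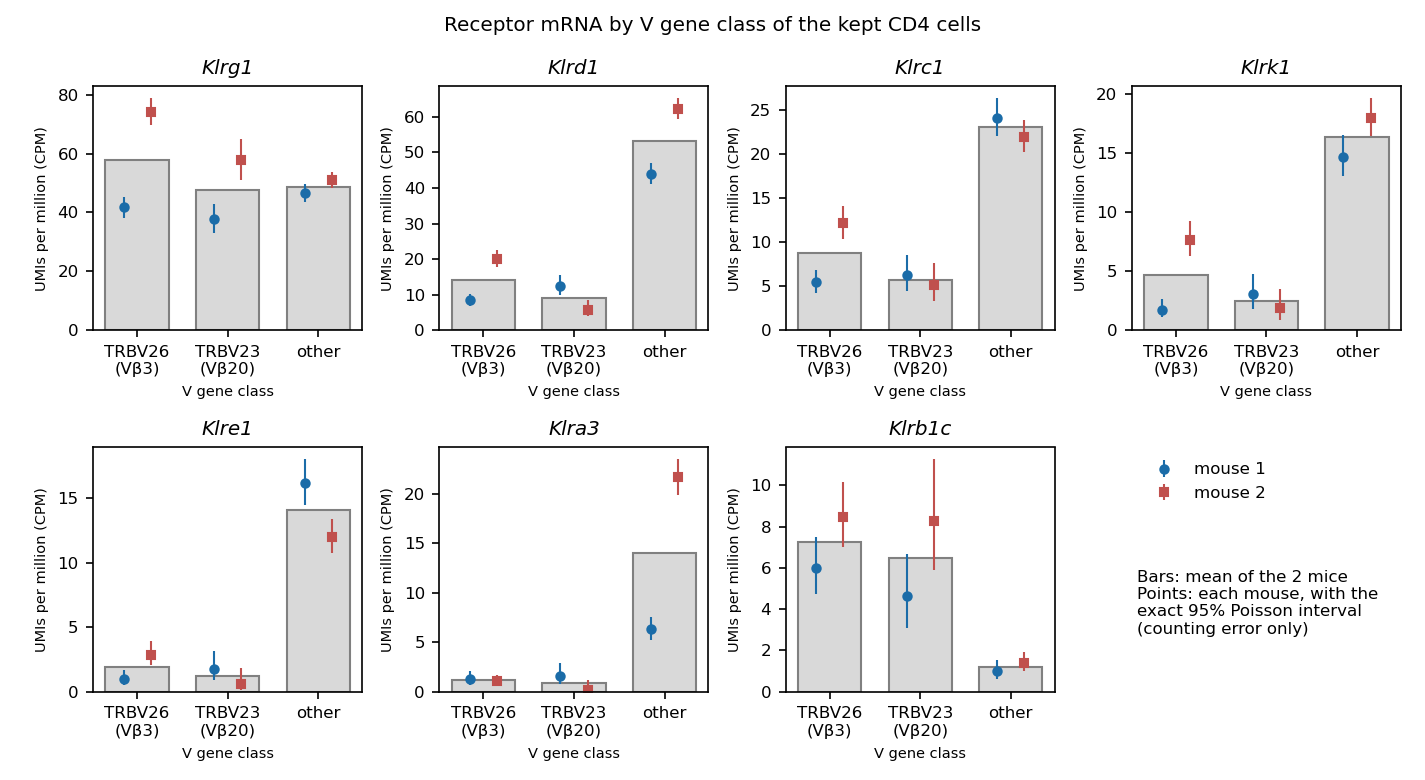
Level of each receptor gene (CPM) in Vβ3, Vβ20 and other cells; bars are the mean of 2 mice, points the mice, with exact 95% Poisson intervals of the counts. Klrd1, Klrc1, Klrk1, Klre1 and Klra3 are highest in other cells and Klrb1c in Vβ3 and Vβ20 cells, while Klrg1 overlaps between the classes.

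By edgeR's quasi-likelihood test with the mouse as a block and Benjamini-Hochberg adjustment, 6 of the 7 members differed between Vβ3 and other cells, where 19.4% of 12630 tested genes did. Klrb1c was higher by a log2 change of 2.59 ± 0.21 (SE, adjusted p = 6.66e-06). Klrd1 was lower, at -1.90 ± 0.20 (adjusted p = 4.74e-05), as was Klre1, at -2.83 ± 0.30 (adjusted p = 4.98e-05). These 2 genes are neighbours in the genome. Klra3 was lower at -3.57 ± 0.40 (adjusted p = 8.15e-05), Klrk1 at -1.81 ± 0.28 (adjusted p = 0.000788) and Klrc1 at -1.38 ± 0.21 (adjusted p = 0.000643). Klrg1 did not pass, with 0.24 ± 0.12 (adjusted p = 0.197). In Vβ20 against other cells the same 6 members passed in the same directions, where 13.4% of genes did, from -3.67 ± 0.56 for Klra3 to 2.41 ± 0.26 for Klrb1c, and Klrg1 did not (adjusted p = 0.901). The other cells are shared by both comparisons. Between Vβ3 and Vβ20 cells no member passed in edgeR, at an unadjusted p under 0.05 or in DESeq2, where 0.0475% of genes did in edgeR.

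The classes also differed in clonotype size. Of Vβ3 cells, 80 and 59 sat in clonotypes of 20 or more cells, against 1012 and 1410 of other cells. When only cells alone in their clonotype were compared, an alternative chosen after the data were seen, 2 of the 7 members passed for Vβ3 against other cells, where 26.5% of 11533 tested genes did. These were Klrb1c (2.83, adjusted p = 2.39e-06) and Klre1 (-1.47, adjusted p = 0.00332). In that comparison Klrd1 was at -0.26 (adjusted p = 0.281) and Klrk1 at -0.20 (adjusted p = 0.736). Klrc1 was at -0.05 (adjusted p = 0.895) and Klra3 at 1.11 (adjusted p = 0.251). Klra3 had 7 and 1 UMIs in the other cells used here. DESeq2 was run on all kept cells, not on cells alone. There 3 members passed for Vβ3 against other cells (Klre1, Klrb1c and Klrc1), where 905 of 12630 genes did. Klrd1 (adjusted p = 0.131), Klra3 (adjusted p = 0.0581) and Klrk1 (adjusted p = 0.224) did not.

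Receptor levels differed with clonotype size. Klrd1 was at 14.6 and 16.9 CPM in cells alone in their clonotype, 16.3 and 23.3 in clonotypes of 2 to 4 cells, 50.6 and 44.5 in those of 5 to 19 and 46.3 and 120 in those of 20 or more. Klre1 ran from 3.26 and 2.92 CPM in cells alone through 3.33 and 4.44 and then 16.1 and 9.25 to 20.9 and 21.8 in the largest clonotypes. In both genes the 2 smaller classes overlapped or lay close together and the 2 larger classes lay above them. Klrk1 was at 5.18 and 7.04, 4.69 and 8.32, 15.4 and 16.4, and 14.5 and 29.2 CPM in the same order. Klrc1 was at 9.37 and 13.0, 14.8 and 13.1, 22.7 and 31.1, and 20.5 and 21.9 CPM. The levels of Klrc1 in the 2 largest classes overlapped nowhere with those of cells alone. Among other cells, Klrc1 was at 11.3 and 12.2, 31.2 and 23.7, 38.1 and 45.1, and 22.7 and 20.3 CPM in the same order. There it was higher already in clonotypes of 2 to 4 cells.

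Klra3 stood out by host. It was at 1.59 and 0.417 CPM in cells alone, 3.02 and 1.04 in clonotypes of 2 to 4, 6.02 and 3.84 in those of 5 to 19, and 7.85 and 58.6 in those of 20 or more, so that the largest clonotypes of mouse 2 were far above every other class. Klrb1c was highest where clonotypes were small, at 4.98 and 6.21, 4.27 and 3.78, 0.440 and 3.32, and 0.826 and 1.5 CPM. Klrg1 showed no common order, at 38.2 and 69.7, 42.0 and 73.0, 51.9 and 55.8, and 48.6 and 21.9 CPM. These size classes pool the V classes. Among other cells, Klrb1c was at 1.44 and 1.05 CPM in cells alone and 0.760 and 1.27 in clonotypes of 20 or more.

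**Figure D2:**
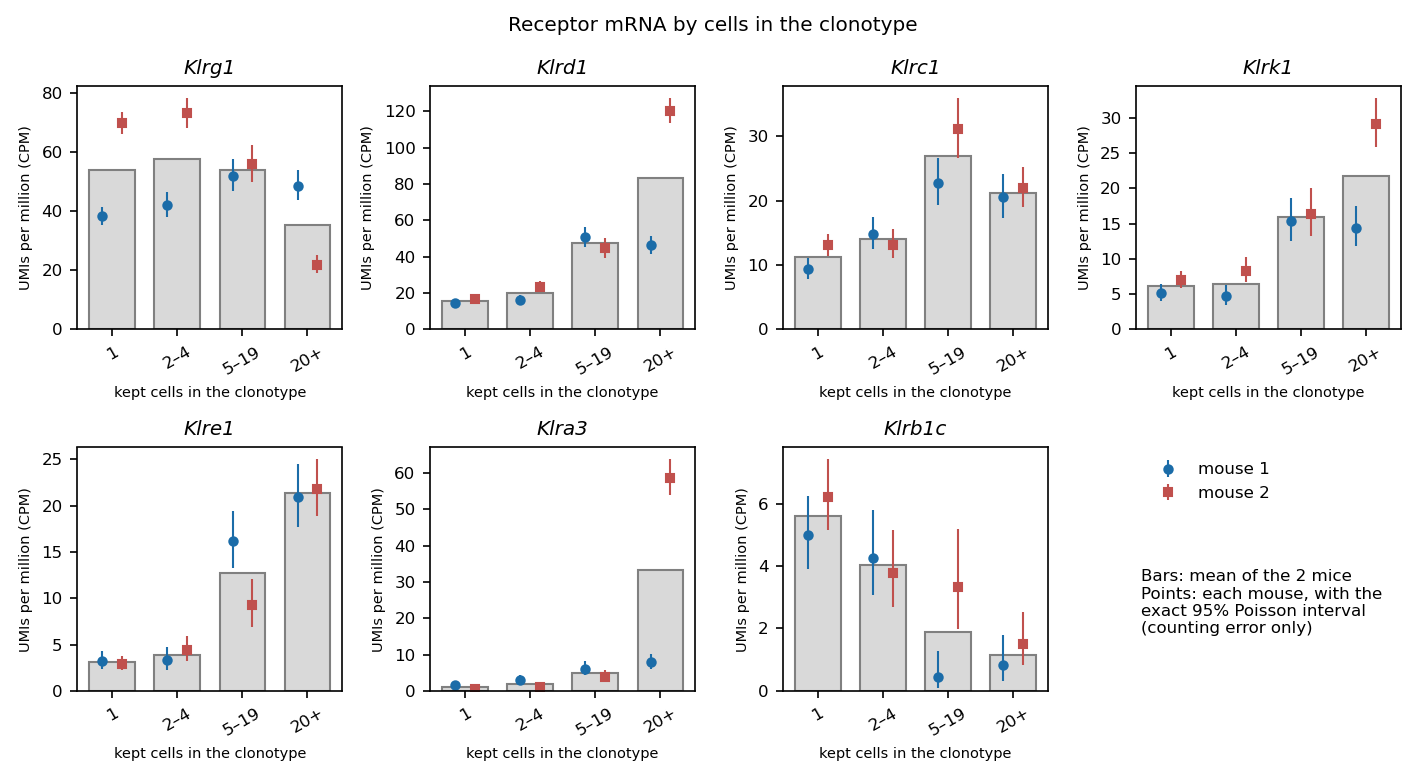
Level of each receptor gene (CPM) by the number of kept cells in the clonotype; bars are the mean of 2 mice, points the mice, with exact 95% Poisson intervals. With all V classes pooled, Klrd1, Klre1, Klrk1, Klrc1 and Klra3 are higher from 5 cells on and Klrb1c is lower in the largest clonotypes. The Klra3 point of mouse 2 reaches 58.6 CPM there. Among other cells, not drawn apart here, Klrc1 is at 31.2 and 23.7 CPM at 2 to 4 cells and 11.3 and 12.2 in cells alone.

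Against cells alone in their clonotype, no member passed in clonotypes of 2 to 4 cells in edgeR or at an unadjusted p under 0.05, where 0.825% of 12238 tested genes passed. In DESeq2 none passed either, with 5 members given no adjusted p. In clonotypes of 5 to 19 cells, 4 members were higher, where 6.25% of genes were higher and 12.2% passed in either direction. These were Klre1 (2.05 ± 0.27, adjusted p = 0.00297), Klrd1 (1.64 ± 0.32, adjusted p = 0.014), Klrk1 (1.42 ± 0.22, adjusted p = 0.00636) and Klrc1 (1.26 ± 0.16, adjusted p = 0.0029). In clonotypes of 20 or more cells, 5 members were higher and 1 lower, where 12.4% and 13.3% of genes were (25.7% in all). Klra3 was higher by 5.02 ± 0.93 (adjusted p = 0.00495), Klre1 by 2.83 ± 0.24 (adjusted p = 0.000122), Klrd1 by 2.39 ± 0.30 (adjusted p = 0.000695), Klrk1 by 1.86 ± 0.21 (adjusted p = 0.000412) and Klrc1 by 0.95 ± 0.16 (adjusted p = 0.0032). Klrb1c was lower, at -2.21 ± 0.49 (adjusted p = 0.0114), and Klrg1 did not pass (-0.58 ± 0.39, adjusted p = 0.32). Other cells made up 1012 of 1092 and 1410 of 1511 cells in these clonotypes, but 782 of 2395 and 1028 of 2585 cells alone. This fit therefore did not separate clonotype size from V class.

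Cells of 1 clonotype descend from few founders and are not independent. With 1 cell drawn from each clonotype, 2 members passed in each of the larger classes. These were Klrd1 (1.72) and Klrc1 (1.93) for 5 to 19 cells, where 754 of 10338 genes passed. For 20 or more they were Klrd1 (2.73) and Klrk1 (2.97), where 196 of 10338 genes passed. Without clonotypes of 50 or more cells, Klra3 was higher by 3.25 in those of 20 or more, in place of 5.02, and Klrb1c no longer passed (-1.96, adjusted p = 0.0614).

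Expansion went with different receptor levels in Vβ3 and in other cells. Among other cells, Klrd1 was at 18.0 and 19.5 CPM in cells alone and 54.2 and 82.9 in expanded cells, those sharing their clonotype with at least 1 more cell. Among Vβ3 cells it was at 13.3 and 17.9 CPM in cells alone and 2.97 and 23.4 in expanded cells. It was lower on expansion in mouse 1 and higher in mouse 2, where 1 Vβ3 clonotype of 59 cells held 83 Klrd1 UMIs (228 CPM). Without clonotypes of 50 or more cells Klrd1 was lower on expansion, as given below. Klrc1 was at 11.3 and 12.2 CPM in other cells alone and 29.2 and 26.7 when expanded, but at 7.28 and 15.2 in Vβ3 cells alone and 3.46 and 7.72 when expanded. Klrk1 was at 9.17 and 5.95 CPM in other cells alone and 16.9 and 23.8 when expanded, against 2.73 and 9.87 and then 0.660 and 4.49 in Vβ3 cells. The Vβ3 values of Klrc1 and Klrk1 were lower on expansion in both mice. Klre1 was at 6.47 and 4.43 CPM in other cells alone and 19.9 and 15.7 when expanded, and at 1.67 and 2.12 and then 0.165 and 3.95 in Vβ3 cells. Klra3 was at 1.26 and 0.117 CPM in other cells alone and 8.28 and 32.0 when expanded. In Vβ3 cells it was at 1.82 and 0.875 and then 0.660 and 1.26 CPM. Its level in other cells alone rested on 7 UMIs in 2 cells of mouse 1 and 1 UMI in 1 cell of mouse 2.

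Within other cells, 5 members were higher and 1 lower on expansion, where 11.6% and 12% of 11820 tested genes were (23.6% in all). Klra3 was higher by 5.11 ± 0.63 (adjusted p = 8.07e-06), starting from 7 and 1 UMIs in other cells alone. Also higher were Klrd1 by 1.88 ± 0.28 (adjusted p = 6.24e-05) and Klre1 by 1.72 ± 0.32 (adjusted p = 0.000548). Klrk1 was higher by 1.49 ± 0.31 (adjusted p = 0.0017) and Klrc1 by 1.24 ± 0.21 (adjusted p = 0.000255). Klrb1c did not pass within other cells (0.03 ± 0.43, adjusted p = 0.973). Klrg1 was lower, at -0.52 ± 0.18 (adjusted p = 0.0479), from 51.6 and 71.4 to 44.5 and 41.2 CPM. Its call was lost without the cells that held a UMI of Ncr1, Tyrobp or Fcer1g (-0.45, adjusted p = 0.122). Over all V classes, Foxp3+ cells, which were high in Klrg1 (below), made up 393 of 2395 and 513 of 2585 cells alone. They made up 49 of 1092 and 19 of 1511 cells in clonotypes of 20 or more. The part of Foxp3 status in the changes on expansion was not tested. In DESeq2, 2 members passed (Klra3 and Klrc1), where 1408 of 11820 genes did. With 1 cell per clonotype 2 passed (Klrd1 and Klrc1), where 764 of 10681 genes did. Within Vβ3 cells no member passed in edgeR or DESeq2, where 7.55% of genes did in edgeR. At an unadjusted p under 0.05 there were 3: Klrb1c, Klrk1 and Klrc1 (adjusted p = 0.053 for Klrc1 at -1.05 ± 0.32).

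The change on expansion was lower in Vβ3 than in other cells for 4 members by the test of the difference itself, where 5.06% of genes were and 10.9% differed in either direction. The difference was -2.29 ± 0.38 for Klrc1 (adjusted p = 0.000588) and -2.84 ± 0.60 for Klrk1 (adjusted p = 0.00466). For Klrd1 it was -2.18 ± 0.50 (adjusted p = 0.00775) and for Klra3 -5.52 ± 1.37 (adjusted p = 0.0136). The Klra3 value uses other cells alone, with 7 and 1 UMIs. Klre1 (-1.67 ± 0.74, adjusted p = 0.18), Klrg1 (0.77 ± 0.27, adjusted p = 0.0812) and Klrb1c (-0.64 ± 0.50, adjusted p = 0.504) did not pass. In DESeq2, without the mouse block and with 1 cell per clonotype, 1 member passed in each: Klrc1, Klrc1 and Klrd1, respectively. Over all genes there were 613, 362 and 81 calls in the same order. Without clonotypes of 50 or more cells, Klrd1 (-1.44), Klrk1 (-2.25) and Klrc1 (-1.78) passed as lower on expansion within Vβ3 cells. There 331 of 11839 genes were lower.

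Single clonotypes carried much of some receptors. Klra3 in mouse 2 had 53.8% of its UMIs in 1 TRBV29 clonotype of 366 cells and 86.4% in its 5 leading clonotypes. Without the leading clonotype of each host its level was 2.94 CPM in mouse 1 and 6.34 in mouse 2, and without the 5 leading clonotypes 2.07 and 1.98. These clonotypes were picked by their Klra3 UMIs, so the values are a description. Klrd1 had 25.2% and 41.8% of its UMIs in 5 clonotypes, and Klre1 40.5% and 43.7%. Klrb1c was spread over 94 and 138 clonotypes, with at most 3.20% and 2.60% of its UMIs in any of them. Of the cells with a Klrb1c UMI, 61.5% and 61.6% were alone in their clonotype, against 39.6% and 40.3% of the cells without one. Vβ3 cells made up 62.5% and 58.2% of the cells with a Klrb1c UMI and 34.3% and 30.3% of those without.

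The β chain CDR3 of 6 clonotypes on which these values turn are given 5′ to 3′, the capital letter marking the single base by which the first pair differ. They are leading clonotypes of Klrg1, of Klrd1, Klra3 and Klrk1 in each mouse and of Klrc1, with 2 more added for comparison after their values were seen.
TRBV31 TRBJ1-4, mouse 1, 222 cells: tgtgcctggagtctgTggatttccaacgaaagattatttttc
TRBV31 TRBJ1-4, mouse 1, 216 cells: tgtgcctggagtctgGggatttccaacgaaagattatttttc
TRBV29 TRBJ2-1, mouse 1, 50 cells: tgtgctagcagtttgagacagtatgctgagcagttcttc
TRBV29 TRBJ2-3, mouse 2, 366 cells: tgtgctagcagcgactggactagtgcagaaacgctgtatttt
TRBV12-2+TRBV13-2 TRBJ1-5, mouse 1, 46 cells: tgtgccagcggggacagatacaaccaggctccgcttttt
TRBV26 TRBJ1-1, mouse 2, 11 cells: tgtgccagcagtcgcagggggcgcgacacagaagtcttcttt
The TRBV31 pair differ by the substitution T16G, counted from 1 at the 5′ end of the CDR3, and have different α chains. TRAV21-DV12 with TRAJ56 was found in 216 of 222 cells of the first, and TRAV21-DV12 with TRAJ48 in 213 of 216 cells of the second. Klrg1 was seen in 24.8% of cells of the first (exact 95% interval 19.2% to 31.0%) and 16.7% of the second. In the TRBV29 clonotype of mouse 1, Klrd1 was seen in 26 of 50 cells (52%, 37.4% to 66.3%), Klre1 in 23, Klrk1 in 15 and Klra3 in 14. In the TRBV29 clonotype of mouse 2, Klra3 was seen in 35.0% of cells (30.1% to 40.1%) and Klrd1 in 26.0%. Klrc1 was seen in 23 of 46 cells of the TRBV12-2+TRBV13-2 clonotype (34.9% to 65.1%). All 11 cells of the TRBV26 clonotype were Foxp3+, and 10 of them held Klrg1 (90.9%). Such intervals cover counting error only.

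Over the 19 clonotypes of 20 or more cells in each mouse, Klrd1 was seen in more than 10% of cells of 7 in mouse 1 and 12 in mouse 2. Klrg1 passed that share in 8 and 5 clonotypes, Klrc1 in 5 and 5, Klrk1 in 3 and 7, Klre1 in 3 and 5, and Klra3 in 1 and 6. Klrb1c passed it in none, with at most 4.17% and 4.76%. Of the 38 clonotypes, 13 passed it for Klrg1, 19 for Klrd1 and 3 for both. Those 3 were a TRBV16 clonotype of 51 cells in mouse 1 (Klrg1 in 52.9% and Klrd1 in 11.8% of cells), and in mouse 2 a TRBV5 clonotype of 29 cells (20.7% and 13.8%) and a TRBV12-2+TRBV13-2 clonotype of 21 cells (47.6% for each). Over the 38 clonotypes the levels of Klrg1 and Klrd1 had r = -0.48. Klre1 and Klrk1 had r = 0.88, and Klre1 and Klrd1 r = 0.85. The few Vβ3 clonotypes of this size numbered 3 and 1. No cell of the 3 in mouse 1 held Klrd1 (0 of 80 cells, which allows up to 3.75%). In 1 of these 3, 18 of 20 cells were Foxp3+, a class low in Klrd1 (below). The Vβ3 clonotype of mouse 2, with 59 cells and 0 of them Foxp3+, held Klrd1 in 33.9%.

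**Figure D3:**
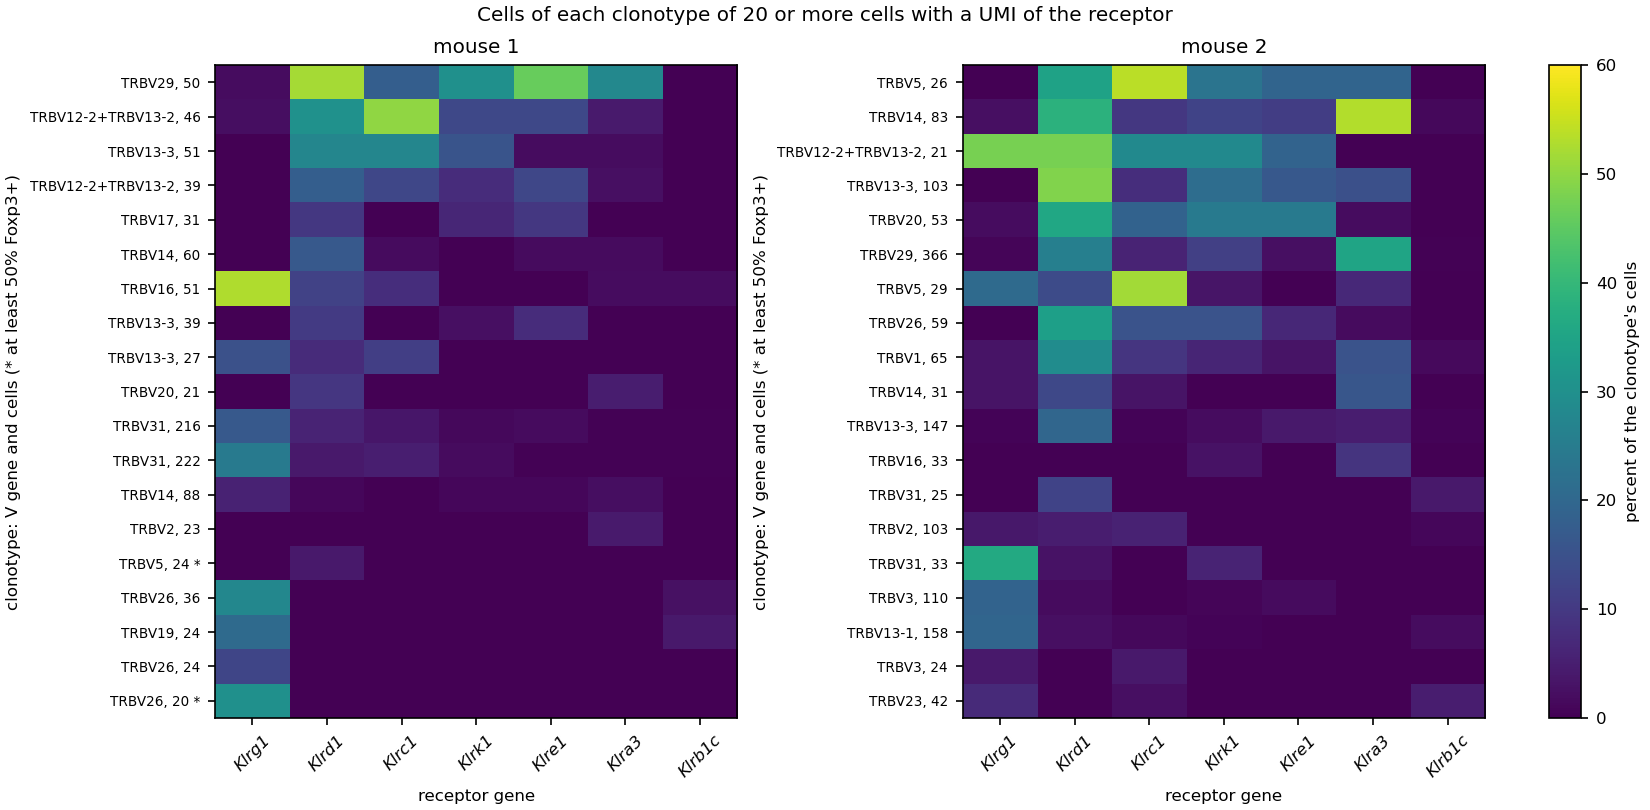
Share of cells with at least 1 UMI of each receptor gene (colour, percent) in each clonotype of 20 or more cells, 19 per mouse, labelled by V gene and cell number. The 8 clonotypes over 10% for Klre1 and the 10 for Klrk1 are all among the 19 for Klrd1, which also passes where both are low (mouse 2 TRBV13-3, 147 cells: 19.7% for Klrd1, 4.08% for Klre1 and 2.04% for Klrk1). Klrg1 and Klrd1 share 3, and Klrb1c stays at or below 4.76%.

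Across these 38 clonotypes, with log2(CPM + 10) centred within each mouse, the genes most like each member were ranked among 6524 genes by Pearson's r, as a description over points that share 2 libraries. Klrd1 ran closest to Cx3cr1 (r = 0.93), a chemokine receptor of cytotoxic effector cells, then Klre1 and Plek (0.83). Klre1 ran closest to Klrk1, Klrd1 and Arl6ip5 (0.73). Klrk1 ran closest to Klre1, Klrd1 (0.82) and Ppm1j (0.79). Klrc1 ran closest to Klrk1 (0.75), Ostf1 and Cblb (both 0.69), the last a ubiquitin ligase that restrains T cell activation. Klra3 ran closest to Ctsc (0.73), the protease that activates granzymes, Gpr65 (0.67) and Sh2d2a (0.64). Klrg1 ran closest to Ccr2 (0.71), Arhgdib and Sp100 (both 0.69). Klrb1c, at a mean of 1.22 CPM in these clonotypes, was too low to be ranked usefully.

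Foxp3 status split Klrg1 from the other members. Klrg1 was at 124 and 215 CPM in Foxp3+ cells and 25.4 and 18.6 in Foxp3- cells. Among Vβ3 cells it was at 163 and 357 CPM in Foxp3+ and 26.2 and 16.7 in Foxp3- cells, and among other cells at 97.2 and 159 against 29.7 and 18.2. In Vβ20 cells it was at 221 and 242 against 11.9 and 25.7 CPM. Foxp3+ cells were above Foxp3- cells in each class and mouse. After thinning every cell to 3000 UMIs, Klrg1 was seen in 16.3% and 21.2% of Foxp3+ cells and 4.41% and 2.84% of Foxp3- cells. Foxp3+ cells made up 34.9% and 55.4% of cells with a Klrg1 UMI and 13.4% and 14.4% of those without.

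The other 6 members were nearly absent from Foxp3+ cells. Klrd1 was at 2.24 and 2.95 CPM in Foxp3+ cells and 33.0 and 53.8 in Foxp3- cells. Klrc1 was at 1.12 and 1.86 against 18.3 and 21.2 CPM, and Klrk1 at 0.980 and 0.984 against 10.3 and 16.3. Their Foxp3+ values lay below the Foxp3- values in both mice. Klre1 was at 0.420 and 0.765 against 10.8 and 9.87 CPM, and Klra3 at 0.280 and 0.656 against 4.72 and 16.3. Klrb1c was at 0 (0 UMIs, which allows up to 0.420 CPM) and 0.437 against 3.96 and 5.27 CPM. Foxp3+ cells were sequenced a little deeper, with medians of 6338 and 6597.5 UMIs against 5522 and 6166. The share of Foxp3+ cells with a UMI of Klrd1, Klre1, Klra3, Klrk1 or Klrc1 was 0.694% and 0.903% after thinning, against 8.09% and 12.4% of Foxp3- cells. In cells with naive T cell markers, at higher medians of 7447.5 and 8286.5 UMIs, it was 5.08% and 3.61%. Free RNA was not measured, since the barcodes with macrophage and no CD3 transcripts meant for it numbered only 5 and 3. The Foxp3+ share does not stand in for it. In mouse 2 all 6 Klra3 UMIs of Foxp3+ cells lay in 3 of the 19 Foxp3+ cells in clonotypes of 20 or more.

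**Figure D4:**
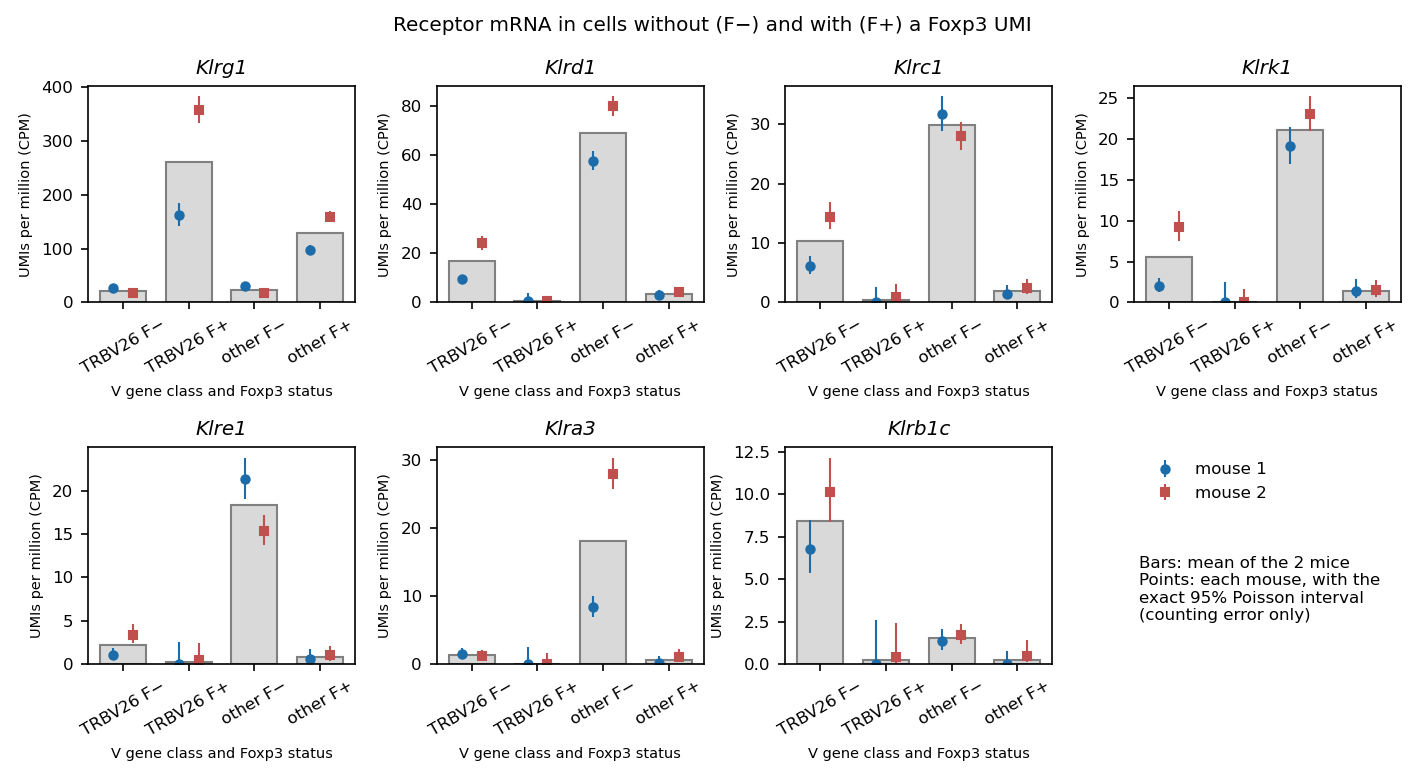
Level of each receptor gene (CPM) in Foxp3+ and Foxp3- cells of the Vβ3 and other classes; bars are the mean of 2 mice, points the mice, with exact 95% Poisson intervals. Klrg1 is higher in Foxp3+ cells of both classes, up to 357 CPM in Vβ3 cells of mouse 2, and the other 6 genes are lower.

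Within other cells all 7 members passed by edgeR's quasi-likelihood test, where 31.8% of 11718 tested genes did. Klrg1 was higher in Foxp3+ cells by 2.41 ± 0.27 (adjusted p = 1.01e-06). Lower were Klra3 at -4.85 ± 0.52 (adjusted p = 8.26e-07), Klre1 at -4.47 ± 0.45 (adjusted p = 3.31e-07), Klrd1 at -4.26 ± 0.31 (adjusted p = 4.68e-09), Klrc1 at -3.93 ± 0.35 (adjusted p = 3.62e-08) and Klrk1 at -3.92 ± 0.44 (adjusted p = 2.25e-06). Klrb1c also passed (adjusted p = 0.00891). It had 3 UMIs in the Foxp3+ cells of this class and was 5.68-fold lower there (95% counting interval 1.84 to 28.4).

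Within Vβ3 cells, 5 of the 7 members passed, where 28.3% of genes did. Klrg1 was higher by 3.62 ± 0.30 (adjusted p = 3.36e-08). Klrk1 had no UMI in Vβ3 Foxp3+ cells of either mouse and was at least 6.97-fold lower than in Vβ3 Foxp3- cells, taking 3 counts over both mice as the floor (adjusted p = 0.0101). Klrb1c had 1 UMI there and was 31.5-fold lower (5.59 to 1252, adjusted p = 6.94e-05). Klrd1 and Klrc1 had 2 UMIs each, and were 31.3-fold (8.60 to 259, adjusted p = 0.000658) and 19.3-fold lower (5.27 to 160, adjusted p = 0.00128). Klre1, with 1 UMI, and Klra3, with none, did not pass (adjusted p = 0.126 and 0.141). The difference between the 2 classes in the change with Foxp3 passed for no member in edgeR or DESeq2, where 3.89% of genes passed in edgeR. At an unadjusted p under 0.05 only Klrg1 did (1.20 ± 0.41, adjusted p = 0.122).

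Klrd1, Klre1, Klrk1, Klrc1 and Klra3 met in the same cells. After thinning to 3000 UMIs, 55 of 74 cells with Klre1 in mouse 1 (74.3%, exact 95% interval 62.8% to 83.8%) and 74 of 90 in mouse 2 (82.2%, 72.7% to 89.5%) also held Klrd1. Klrd1 was held by 4.37% and 6.34% of all thinned cells. Cells with Klrk1 held Klrd1 in 64.9% and 68.8%, cells with Klrc1 in 39.4% and 42.6%, and cells with Klra3 in 16 of 40 in mouse 1 and 40.8% in mouse 2. In both mice the exact 95% intervals of these shares, the lowest starting at 24.9%, lay above the share over all cells. Such intervals count cells, and cells of 1 clonotype are not independent, so they cover counting error only. Klrg1 cells held Klrd1 in 5.28% and 3.48%, close to the share over all cells in mouse 1 and below it in mouse 2. Of the cells with Klrb1c, 1 of 57 and 1 of 69 held Klrd1, and none held Klrc1, Klre1 or Klrk1 in either mouse, which allows up to 5.26% and 4.35%. At this depth a cell with transcripts of a gene can show none of its UMIs, so these shares are not shares of cells that lack it.

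**Figure D5:**
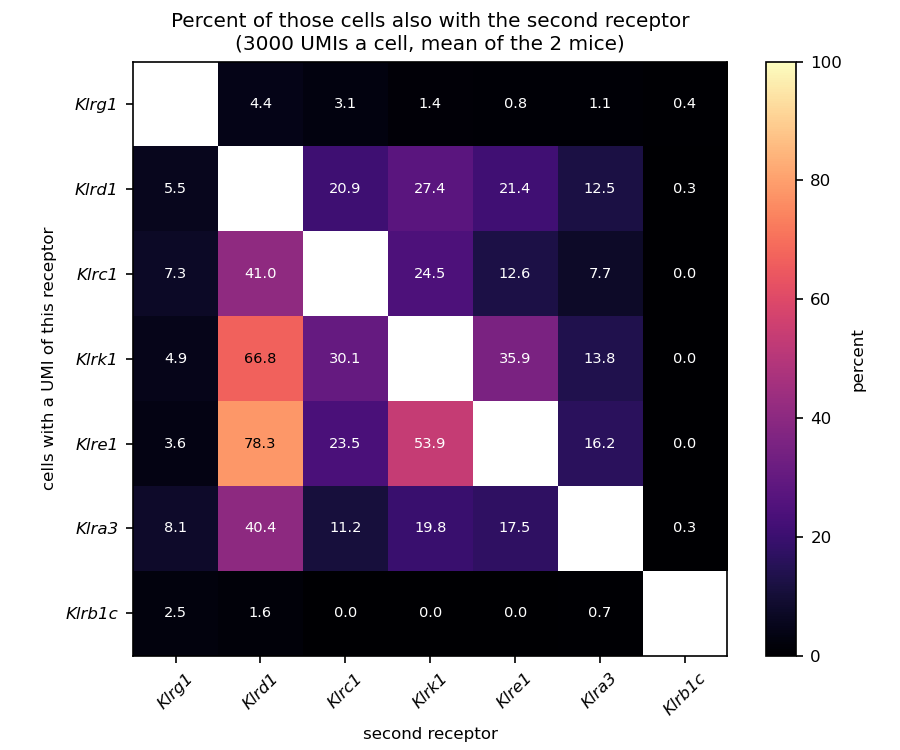
Percentage of cells with the row's receptor gene that also held the column's gene, after thinning to 3000 UMIs, as the mean of 2 mice. Klre1, Klrk1 and Klrd1 share the highest values, while Klrb1c cells hold Klrd1 in 1 of 57 and 1 of 69 cells.

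Genes around the receptors were read from 5 lists. Of 20 other killer lectin-like receptor genes only 3 were measured well enough to test between Vβ3 and other cells, and none passed (Klrb1f at -0.28 ± 0.16 and Klrb1a at -0.59 ± 0.41). Both were higher in clonotypes of 20 or more cells, Klrb1f by 1.06 ± 0.25 (adjusted p = 0.0155) and Klrb1a by 1.73 ± 0.40 (adjusted p = 0.0132). Of 14 adaptor and phosphatase genes, 7 were higher and none lower in Vβ3 cells, where 8.8% and 10.6% of genes were. The SHP-2 phosphatase gene Ptpn11, at 217 and 248 CPM in Vβ3 and 116 and 136 in other cells, was higher by 0.89 ± 0.05 (adjusted p = 6.73e-07). Sh2d1a, the adaptor SAP, was higher by 0.31 ± 0.04 (adjusted p = 0.000193), and Hcst, the partner of Klrk1, by 0.19 ± 0.05 (adjusted p = 0.0125). Of 8 ligand genes 2 were higher and 1 lower in Vβ3 cells, led by Clec2i at 0.29 ± 0.05 (adjusted p = 0.00268) and the NKG2D ligand gene Ulbp1 at -0.66 ± 0.14 (adjusted p = 0.00539).

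Cytotoxic effector genes were lower in Vβ3 cells and higher in the largest clonotypes. Of 15 tested, 14 were lower and none higher in Vβ3 cells, where 10.6% and 8.8% of genes were, with a median log2 change of -0.90 against 0.00 over all genes. Gzma, a granzyme, was at 8.40 and 12.9 CPM in Vβ3 cells and 43.2 and 52.7 in other cells (-2.17 ± 0.11, adjusted p = 1.87e-07). Prf1, perforin, was at 22.0 and 18.8 against 61.2 and 54.7 CPM (-1.51 ± 0.08, adjusted p = 3.6e-07). In clonotypes of 20 or more cells 13 of the 15 were higher and none lower, where 12.4% and 13.3% of genes were, with a median of 2.28 against 0.01 over all genes. In Foxp3+ against Foxp3- other cells, where 31.8% of genes passed, 13 were lower and 2 higher, Gzmb (0.98 ± 0.18, adjusted p = 0.00035) and Cst7 (0.81 ± 0.07). Of 16 regulator genes, 4 were higher and 9 lower in Vβ3 cells, where 8.8% and 10.6% of genes were. Tcf7, a factor of naive and memory-like T cells, was higher at 576 and 646 CPM against 255 and 280 (1.19 ± 0.04, adjusted p = 1.13e-08). Eomes, a T-box factor of cytotoxic cells, was lower at 63.9 and 43.3 against 138 and 98.2 CPM (-1.14 ± 0.06, adjusted p = 2.32e-07).

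Markers of other cell types that can carry these receptors were also read. Ncr1, which defines natural killer cells, had 0 and 2 UMIs over all kept cells, and Cd8a had none in either mouse. Cd8b1 was seen in 4.94% and 4.91% of cells, and an invariant TRAV11-TRAJ18 receptor in 1 and 3 cells. The 9 natural killer markers summed to 11.4 and 10.0 CPM in Vβ3 cells and 11.5 and 19.5 in other cells, to 9.04 and 8.66 in cells alone and 12.7 and 36.6 in the largest clonotypes, and to 6.44 and 7.54 in Foxp3+ and 13.6 and 18.6 in Foxp3- cells. The cells that held a UMI of Ncr1, Tyrobp or Fcer1g were then left out. Of 7 members, 6 again passed for Vβ3 against other cells, where 2638 of 12527 genes did. For clonotypes of 20 or more cells against cells alone 6 passed, where 3061 of 12142 genes did. For Foxp3 status within other cells 7 passed, where 3795 of 11661 genes did.

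Markers of γδ T cells (Trdc, Tcrg-C1 and Sox13) differed between the classes of mouse 1. They summed to 104 and 3.22 CPM in clonotypes of 20 or more cells and 2.86 and 1.77 in cells alone, to 2.45 and 0.442 in Vβ3 and 39.4 and 4.21 in other cells, and to 1.26 and 0.874 in Foxp3+ and 25.9 and 3.09 in Foxp3- cells. The high values of mouse 1 lay in the TRBV31 pair, where Trdc was seen in 182 of 222 and 155 of 216 cells, while no other large clonotype held it in more than 1 cell. Macrophage markers (C1qa, C1qb, C1qc, Adgre1 and Csf1r) summed to 8.95 and 41.4 CPM in clonotypes of 20 or more cells and 10.5 and 10.4 in cells alone. They were at 15.5 and 12.3 CPM in Vβ3 and 8.38 and 21.5 in other cells, and at 4.06 and 9.29 in Foxp3+ and 11.4 and 21.8 in Foxp3- cells.

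Cells with a UMI of any of these 8 genes were left out in an alternative chosen after the data were seen. Then all 7 members passed for Vβ3 against other cells, where 2349 of 12530 genes did, with Klrg1 added as higher (0.30, adjusted p = 0.0471). For clonotypes of 20 or more cells against cells alone 6 passed, where 3138 of 12125 genes did. For Foxp3 status within other cells 7 passed, where 3624 of 11664 genes did. On expansion within other cells 6 passed, where 2579 of 11713 genes did. For the difference between Vβ3 and other cells 5 passed, where 1170 of 11713 genes did, with Klrg1 added (0.83, adjusted p = 0.0303). The directions of the calls with all cells were kept.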

How the data were processed

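The libraries are 10x 5′ libraries. The submitters' processing notes name Cell Ranger 7.0.1 and the builds mm10 and GRCm38. The authors deposited counts: UMIs per gene and barcode, and reads and UMIs per receptor contig, with no normalization. A cell was kept with 500 or more genes, no more than 10% of UMIs from mitochondrial genes, 1 TRB contig and up to 2 TRA contigs, which gave 3166 and 3316 clonotypes. No doublet caller was run, and 708 and 702 barcodes with 2 TRB chains were left out.

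Counts were summed per mouse and class (38725969 and 44796902 UMIs over all kept cells) and tested with edgeR 4.0.16 in R 4.3.3 (TMM factors, filterByExpr, quasi-likelihood F test). The SE given with a log2 change was not fitted directly. It is the size of the change divided by the square root of its F statistic. Benjamini-Hochberg adjustment ran over all tested genes, at a threshold of 0.05. T cell receptor segments were left out of the tests. The same animal gives every class, so the mouse is a block. Its effect was shared, with r of the mouse difference between classes from 0.53 to 0.66 over 6566 genes. With 2, 3 or 5 residual degrees of freedom (V class, size, and the fits within V class), the tests lean on the spread pooled across genes. DESeq2 1.42.0 was an alternative. Others dropped the low-count filter, the block, 1 mouse, large clonotypes or cells with natural killer, CD8, γδ T cell or macrophage markers, or drew 1 cell per clonotype. Shares were thinned to 3000 UMIs (591 and 335 shallower cells left out), with exact Clopper-Pearson 95% intervals. Of the edgeR comparisons, that of Vβ3 with other cells was run on simulated counts. These had the same spread setting for all genes and no mouse or clonotype effect, so the run does not cover such effects.

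The members, lists and tests were chosen with earlier results of these data known. The text names the 7 members, the 2 genes of each list with the smallest p for Vβ3 against other cells, and the 3 genes most like each member over large clonotypes among those with a mean of at least 20 CPM. Hcst, Gzmb and Cst7, and the genes in the closing section, were named after their values were seen.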

Additional observations from a re-analysis of the deposited data

Results flagged for a closer look

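The change of 4 receptors on expansion differed between Vβ3 and other cells by the test of the difference. It differed by -2.18 for Klrd1, -5.52 for Klra3, -2.84 for Klrk1 and -2.29 for Klrc1 on the log2 scale. Other cells alone in their clonotype, used in this difference, held 7 and 1 Klra3 UMIs.

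The receptors were also found in barcodes with enough genes and few mitochondrial UMIs that were not kept because they lacked exactly 1 β chain, 3867 in mouse 1 and 3310 in mouse 2. There a count of 0 would allow up to 0.0961 and 0.0967 CPM, and all 7 genes lay above that. Klrg1 was at 33.6 and 37.7 CPM in these barcodes and Klrd1 at 49.4 and 52.1. Klrc1 was at 25.5 and 21.1 CPM, Klrk1 at 16.8 and 14.0 and Klre1 at 15.5 and 9.92. Klra3 was at 3.65 and 12.9 CPM and Klrb1c at 1.92 and 3.16. Klrd1, Klrc1, Klrk1 and Klre1 were above, and Klrg1, Klra3 and Klrb1c below, their levels in kept cells in both mice, a difference that was not tested. Natural killer markers summed to 75.2 and 32.0 CPM in barcodes with no receptor contig, against 12.3 and 16.4 in kept cells, and their part in these levels was not tested.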

How the results depend on the processing

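Of the values of single genes under other settings, 859 kept their direction and side of the threshold, 44 lost and 23 gained a call, and 2 reversed. Both reversals were of Klra3 with only clonotypes of 1 cell, at 1.11 for Vβ3 and 0.43 for Vβ20 against other cells. The other cells there held 7 and 1 Klra3 UMIs, and the cause was not tested. Most lost calls came with 1 cell per clonotype (14), which has fewer cells, with DESeq2 (11) and with no replicate block (10). For Vβ3 against other cells, 6 members passed, 3 in DESeq2 and 2 with only clonotypes of 1 cell. For clonotypes of 2 to 4 cells, 0 passed, and 1 among cells with neither TRBV26 nor TRBV23 (Klrc1, 1.14). For 5 to 19 cells, 4 passed, 2 with no replicate block and 2 with 1 cell per clonotype, and for 20 or more cells 6 passed, 2 with 1 cell per clonotype. On expansion in Vβ3 cells 0 passed, 2 with no filter on low counts and 3 without clonotypes of 50 or more cells. In other cells 6 passed, 2 in DESeq2 and 2 with 1 cell per clonotype. For the difference between them 4 passed, and 1 each in DESeq2, with no replicate block and with 1 cell per clonotype. For the Foxp3 difference 0 passed, and 1 with no filter on low counts.

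As the mean of both mice, the share of cells with a UMI moved with depth. With no thinning in place of 3000 UMIs, Klrg1 went from 6.27% to 9.01%, Klrd1 from 5.35% to 7.60%, Klre1 from 1.44% to 1.98%, Klrb1c from 1.10% to 1.95%, Klrk1 from 2.20% to 3.14% and Klrc1 from 2.68% to 4.46%. At 2000 UMIs Klrg1 was at 4.85%, Klre1 at 1.16%, Klrb1c at 0.837% and Klrc1 at 2.15%. With no thinning Klrd1 was held by 73.5% of Klrk1 cells and 50.1% of Klrc1 cells, in place of 66.8% and 41.0%.

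Over all genes, counts of calls differed by more than 1.5 times for most comparisons, and always fell with no replicate block. Vβ3 against other cells had 2453 calls, from 567 (no replicate block) to 3054 (only clonotypes of 1 cell), and Vβ20 against other cells 1698, from 418 to 2403 with the same settings. Vβ3 against Vβ20 cells had 6, from 0 (no replicate block) to 83 (no filter). Clonotypes of 2 to 4 cells had 101, from 2 (no replicate block) to 743 (without clonotypes of 50 or more cells). Those of 5 to 19 had 1491, from 451 to 2487 likewise, and those of 20 or more 3144, from 196 (1 cell per clonotype) to 3427 (no filter). Expansion had 892 calls in Vβ3 cells, 2790 in other cells and 1287 for the difference, at least 57, 764 and 81 with 1 cell per clonotype. Foxp3 status had 3315 in Vβ3 cells, 3723 in other cells and 456 for the difference, at least 2192, 2395 and 57.

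Each mouse alone gives values with no test. On the log2(CPM + 1) scale no called member changed sign with either mouse left out, and Klra3 for Vβ3 against other cells was at -1.69 with mouse 2 and -3.48 with mouse 1 left out. With 2 hosts and no group without transfer, spread between donors, times or hosts of other strains was not measured. Klrb1c and Klra3 in Foxp3+ cells rest on few UMIs.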

Other observations

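Cells with a receptor UMI differed from cells of the same class without one in other genes. The genes named were chosen after their values were seen, as the largest differences in both mice among genes of at least 50 CPM, and no test was run. Among Foxp3- Vβ3 and Vβ20 cells, the 78 and 115 cells with Klrb1c held Il4, the type 2 helper cytokine, at 59.3 and 57.9 CPM against 18.4 and 19 in the 2705 and 2229 cells without it. Izumo1r, the folate receptor FR4, was at 1549 and 1707 against 748 and 875 CPM. Lower were the chemokine genes Ccl4, at 30.7 and 8.27 against 890 and 659 CPM, and Ccl3, at 8.19 and 4.14 against 212 and 227. Ifng was at 18.4 and 38.6 against 138 and 106 CPM. Median depths were alike, at 5501.5 and 6075 UMIs with Klrb1c and 5436 and 6128 without.

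Among Foxp3+ cells, the 188 and 317 with Klrg1 held Gzmb at 1235 and 1181 CPM against 241 and 281 in the 731 and 829 without it. Il10 was at 86.1 and 79.1 against 41.7 and 42.9 CPM, and the chemokine receptor gene Cxcr6 at 89.4 and 109 against 21.4 and 30.6. Lower were Id3, at 10.4 and 6.62 against 72.9 and 56.0 CPM, Tcf7, at 5.22 and 27.2 against 82.3 and 74.3, and Nrp1, at 26.1 and 37.5 against 80.9 and 81.0. Among Foxp3- cells, the 361 and 559 with Klrd1 held Ifitm1 at 713 and 968 CPM against 54.5 and 79.4 in the 4713 and 4627 without it. Gzma was at 182 and 292 against 16.8 and 10.3 CPM, and Ly6c2 at 209 and 267 against 41.3 and 50.1. The RANKL gene Tnfsf11 was lower, at 20.9 and 16.2 against 88.7 and 80.1 CPM.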
